A study of Mus musculus with 6 samples.

Results

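The 10 genes described here belong to fibroblast growth factor (FGF) signalling and to the pleiotrophin family, and were taken as every row of the deposited expression table whose symbol is *Fgf2*, *Fgf7*, *Fgf10*, *Fgf18*, *Fgfr1*, *Fgfr2*, *Spry1*, *Spry2*, *Ptn* or *Mdk*. All 10 symbols were found among the 28987 genes of the table. RNA-seq was done on EGFP+ cardiac fibroblasts sorted from the ventricles 4 weeks after transaortic constriction (TAC), an operation that narrows the aorta and loads the heart with pressure, in mice operated on at 8 to 10 weeks of age. Every mouse carried a tamoxifen-inducible MerCreMer cDNA in the *Postn* locus and a Cre-dependent EGFP reporter in the *Rosa* locus, and by the sample labels received tamoxifen at 100 mg/kg by injection and at 40 mg/kg in chow, doses for which the methods of the paper give other values. The 3 libraries labelled Hsp47-deleted came from mice that also carried Hsp47 flox/flox, and the 3 control libraries from mice without floxed *Hsp47*. Both groups therefore share the *Postn* insertion, Cre activity, tamoxifen and TAC, and no library without TAC was part of the comparison. Since Cre is made only where *Postn* is active, the sorted cells are those that had switched *Postn* on.

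FGFs are secreted proteins that bind heparan sulfate and tyrosine kinase receptors at the cell surface, and the activated receptor passes its signal through adaptor proteins to the RAS, RAF and ERK kinase cascade. Sprouty proteins are induced by this cascade and dampen it, which makes their transcripts a common readout of FGF activity. Pleiotrophin and midkine are the only members of a separate family of small heparin-binding growth factors, which act through receptor phosphatases, syndecans, LRP receptors and integrins, and which are made in developing and injured tissue. In the heart, FGF2 is known for its part in growth of the loaded ventricle, and fibroblasts are one of its sources.

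Values are log2(value + 1) as deposited. The linear unit is not named and the number of reads behind a value is unknown, so levels are compared between libraries for each gene and never between genes. Each gene is given in a fixed order, with the controls as replicates 3, 4 and 2 and the Hsp47-deleted libraries as replicates 1, 2 and 3. Control replicates 3 and 4 carry 1 sequencing run in their labels, called the first run here, and control replicate 2 and all 3 Hsp47-deleted libraries another, called the second run. Run and label can thus be separated only through control replicate 2, whose group comes from its genotype label, since its title lacks the control tag of the other controls. The difference from that 1 library is given beside the pooled differences, without a test. The labels number the libraries but do not tie each to 1 animal, so p-values measure the spread between libraries. Groups were compared with limma over the 15109 genes with a linear mean of at least 1, with Benjamini-Hochberg (BH) adjustment. Over these genes the median difference between the groups was 0.35 on the log2 scale, and centring each library on its median moved it to -0.060. *Serpinh1*, the gene that encodes Hsp47, was at 6.28, 6.10 and 7.60 in the controls and at 6.87, 6.67 and 6.66 in those labelled Hsp47-deleted (a difference of 0.072 on the log2 scale, adjusted p = 0.947 in limma). Against the second-run control alone all 3 Hsp47-deleted libraries were lower, with a mean difference of -0.87, without a test. In sorted EGFP+ cells of the deleted genotype, the paper reported efficient loss of Hsp47 protein by Western blot. The values here are RNA of the whole gene, which is another measure. The groups are called by their labels below.

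All 8 fibroblast markers examined were above 0 in every library. They include collagens and *Postn*, some of which the paper reports as changed in Hsp47-deleted cells. Their summed linear level was 8304 and 7953 in the first-run controls and 10924 in the second-run control. It was between 12542 and 14297 in the Hsp47-deleted libraries, above every control. Of the 8, 5 were higher in all libraries of the second run than in both of the first, beside 35.0% of all tested genes. Without overlap between the groups, 4 were higher in the Hsp47-deleted libraries, beside 18.3% of all tested genes. The leukocyte marker *Ptprc* was listed at 0 throughout, and 4 of 7 leukocyte markers were above 0 in every library. Markers of other cells were present, and several of these sums also moved with the run. For cardiomyocytes the sum over 8 markers was 95.2 and 40.5 in the first-run controls, 255 in the second-run control and from 169 to 257 in the Hsp47-deleted libraries, and 7 of the 8 were higher in all 4 libraries of the second run than in both of the first run. The endothelial sum was 147 and 92.6, then 248, then from 157 to 235, with 6 of 8 markers split by run in this way, and the leukocyte sum was 37.4 and 80.3, then 86.0, then from 94.1 to 121, with 4 of 7. The share of 35.0% of all tested genes stands beside each of these upward splits by run. The mural sum was not split by run. It was 288 and 163 in the first-run controls, 215 in the second-run control and between 111 and 169 in the Hsp47-deleted libraries. Mesothelial and Schwann sums stayed at or below 11.2 and 7.24, and the erythroid sum was between 13.3 and 342 in the controls and between 81.1 and 136 in the Hsp47-deleted libraries.

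The sequences upstream of *Ptn*, *Spry1* and *Spry2* are shown because *Ptn* was the only tested member whose groups did not overlap, while the Sprouty pair had opposite patterns over the libraries. They were read 5′ to 3′ on the strand of the gene from the RefSeq promoter table (build GRCm38.p6), which held 8 of the 10 members, and end before the first base of the gene in GENCODE. *Ptn* covers chr6:36810221-36810429 (minus strand, 209 bases), *Spry1* chr3:37639697-37639946 (plus strand, 250 bases) and *Spry2* chr14:105896820-105897069 (minus strand, 250 bases). Capitals mark CpG dinucleotides.
Ptn: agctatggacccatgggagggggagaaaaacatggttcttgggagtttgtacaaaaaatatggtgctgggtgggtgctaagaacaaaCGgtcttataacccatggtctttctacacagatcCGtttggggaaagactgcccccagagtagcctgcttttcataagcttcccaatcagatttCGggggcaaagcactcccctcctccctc
Spry1: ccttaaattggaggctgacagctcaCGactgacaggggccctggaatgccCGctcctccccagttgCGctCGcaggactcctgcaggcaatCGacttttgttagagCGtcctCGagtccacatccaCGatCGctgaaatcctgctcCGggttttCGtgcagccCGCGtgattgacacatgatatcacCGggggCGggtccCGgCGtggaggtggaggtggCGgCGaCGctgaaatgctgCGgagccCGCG
Spry2: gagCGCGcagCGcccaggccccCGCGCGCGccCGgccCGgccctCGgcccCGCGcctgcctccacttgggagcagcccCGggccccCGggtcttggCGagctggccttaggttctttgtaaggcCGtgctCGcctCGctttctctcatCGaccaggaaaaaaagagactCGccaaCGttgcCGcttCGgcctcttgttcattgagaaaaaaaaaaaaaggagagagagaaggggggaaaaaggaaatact
*Ptn* held 3 CpGs at 49.8% GC, against 23 CpGs at 62.4% GC upstream of each Sprouty gene. Over the 250 bases before each RefSeq start, 5 motifs were sought: TATAAA (sense strand only, in 7.59% of 32851 promoters), GGGCGG (either strand, 32.7%), the AP-1 letters TGAGTCA and TGACTCA (4.46%), CCGGAA (either strand, 12.0%) and the CArG box (1.47%). The only match among the 3 genes was 1 GGGCGG upstream of *Spry1*. These are letters in a window, not sites shown to be used.

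Of the 10 members, 9 passed the filter on low values. *Fgf10* did not. The clearest difference was in *Ptn*, which was higher in each of the 3 Hsp47-deleted libraries than in any control, by 1.16 on the log2 scale (standard error, SE, 0.30). *Mdk* had the larger pooled difference, 1.60, but its second-run control stood level with the lowest of the Hsp47-deleted libraries. *Fgf2* was the member with the most negative difference, -0.96. None of the 9 passed the BH threshold of 0.05 in limma, where 0.245% of all tested genes did. At an unadjusted limma p under 0.05, 2 members (*Ptn* and *Mdk*) were higher and 0 were lower, beside 14.5% and 0.755% of all tested genes. With all 6 libraries the members' share in the higher direction was thus near that of the table as a whole. Without control replicate 2 that count of members was 4, and without Hsp47-deleted replicate 3 it was 3. It was 1 without control replicate 3, control replicate 4, Hsp47-deleted replicate 1 or Hsp47-deleted replicate 2. The shares of all tested genes in these smaller fits are not given. Without control replicate 2 the count of other pathway genes described below also rose, from 12 to 20.

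**Figure D1:**
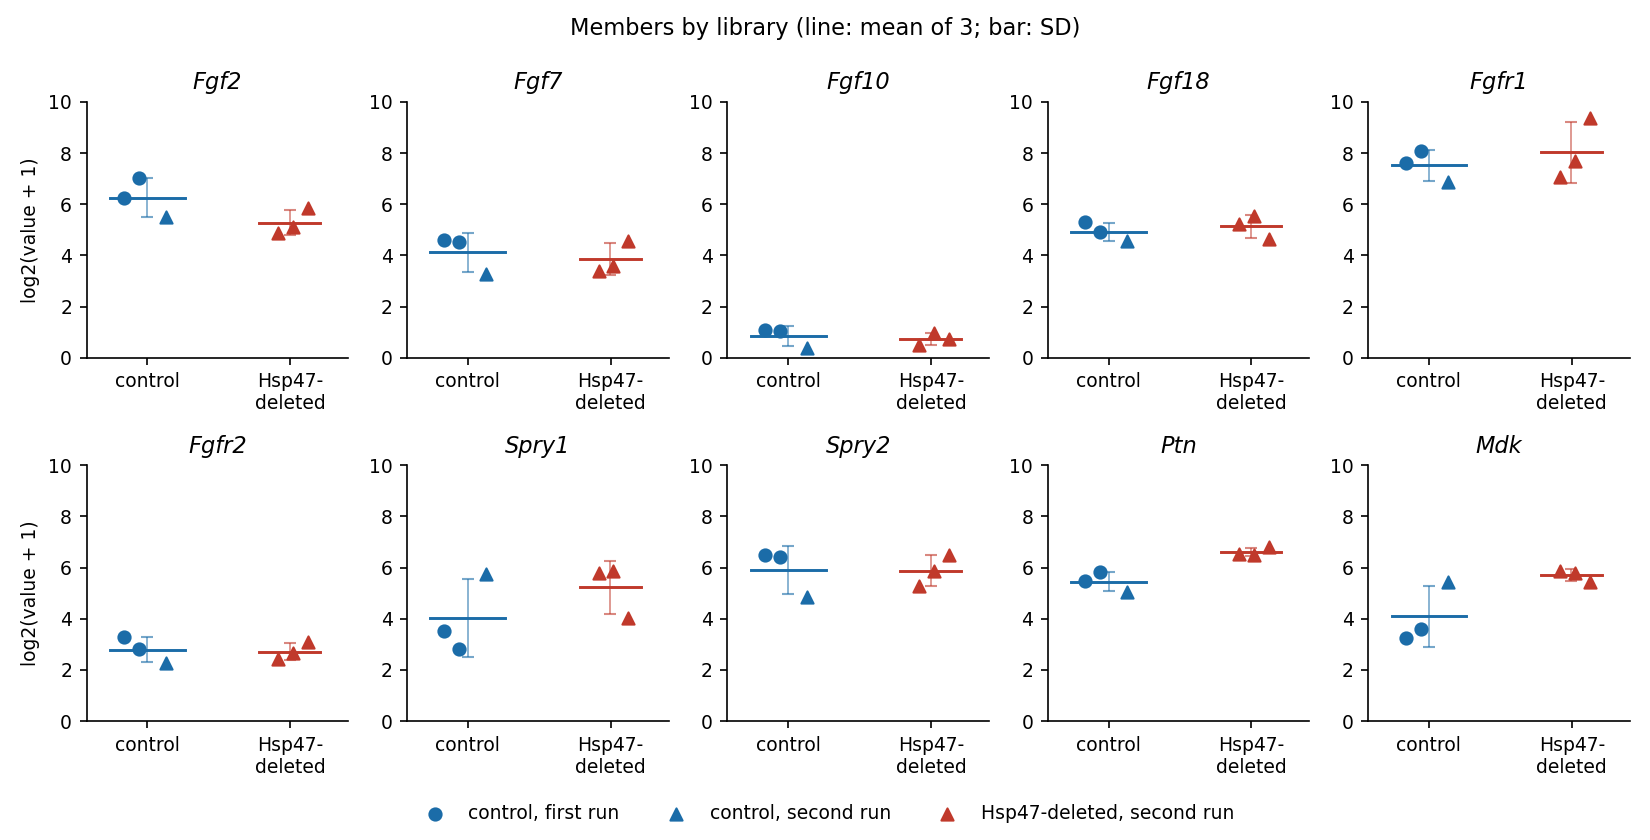
Each panel plots log2(value + 1) of 1 gene in the 6 libraries, with the controls in blue (circles, first run; triangle, second run) and the Hsp47-deleted libraries in red (triangles, second run). Lines are means of 3 libraries and bars are SD. The red triangles lie above every blue mark only for *Ptn*, whose lowest Hsp47-deleted value is 6.49 and highest control value 5.81.

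Over the 9 tested members the median difference was 0.21 on the log2 scale, which is -0.15 relative to that of all tested genes, and 5 were positive and 4 negative. With centred libraries 4 were positive and 5 negative, because *Fgf18* turned sign. The groups did not overlap at 1 member (*Ptn*, higher) and at 0 in the lower direction, where 18.3% and 1.5% of all tested genes did not overlap. Leaving out control replicate 2 or Hsp47-deleted replicate 3 raised this count to 4, with *Mdk*, *Spry1* and *Fgf2* added. Groups of fewer libraries separate more easily, and the shares of all tested genes in these settings are not given. Without control replicate 2, every gene split by run is free of overlap, and such a split was seen upward in 35.0% and downward in 9.92% of all tested genes. Compared with the second-run control alone, 7 of the 9 had a higher mean and the median difference was 0.56, beside 0.29 for all tested genes. All 3 Hsp47-deleted libraries lay above that control at 6 members (*Fgf7*, *Fgf18*, *Fgfr1*, *Fgfr2*, *Spry2* and *Ptn*) and below it at 0, against 46.7% and 11.7% of all tested genes. All 4 libraries of the second run lay above both of the first run at 2 members (*Spry1* and *Mdk*) and below both at 1 (*Fgf2*), against 35.0% and 9.92%. The pooled and the second-run differences share control replicate 2 and the Hsp47-deleted libraries.

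**Figure D2:**
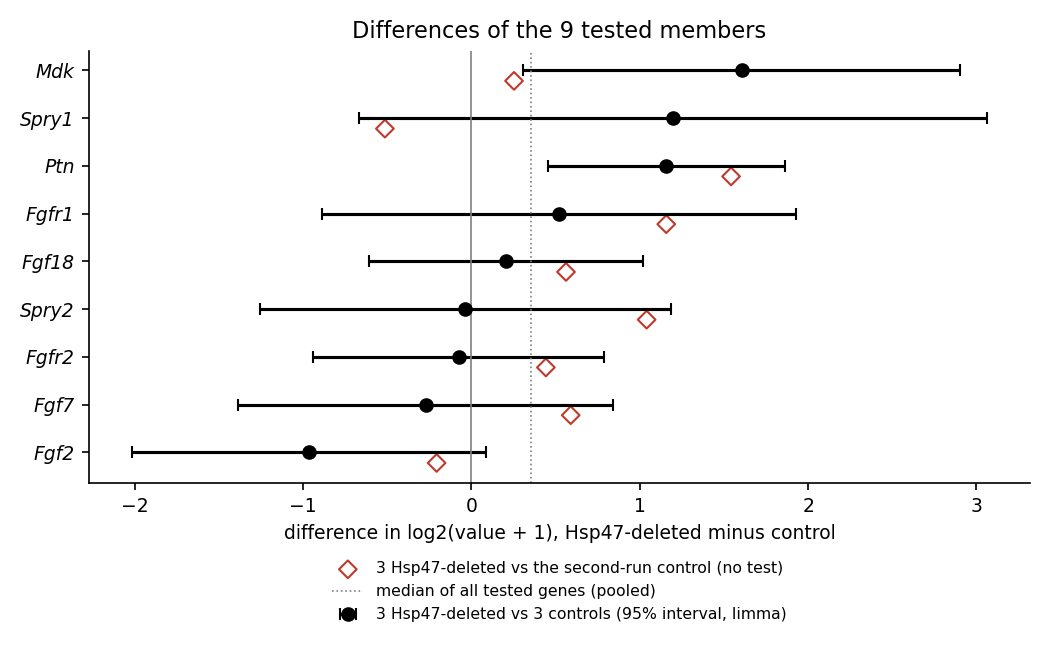
Black points show the pooled log2 fold change of the 9 tested members (horizontal axis, Hsp47-deleted minus control) with the 95% interval from limma, and open red diamonds the difference from the second-run control alone, without a test. The intervals of *Ptn* and *Mdk* lie above 0, the diamond of *Ptn* lies further out than its point (1.54 against 1.16), and that of *Mdk* falls back to 0.25.

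Among the FGF ligands, *Fgf2* was lower in the Hsp47-deleted libraries on average, and its highest libraries were the first-run controls. Its product, basic FGF, lacks a classical signal peptide and is a mitogen for fibroblasts and endothelial cells. *Fgf2* (chromosome 3 from 37348346 to 37410108, plus strand, GRCm38) was at 6.24, 7.02 and 5.49 in the controls and at 4.90, 5.12 and 5.85 in the Hsp47-deleted libraries. Both first-run controls stood above all libraries of the second run, among which control replicate 2 lay between Hsp47-deleted replicates 2 and 3. The means were 6.25 ± 0.76 and 5.29 ± 0.50 (SD, n = 3 each), a log2 fold change of -0.96 (SE 0.45, adjusted p = 0.348 in limma). Within the second run the difference was -0.21. The opposite-strand gene *Nudt6* shares 640 exon bases with *Fgf2*, or 9.44% of those of *Fgf2*, and the library method does not keep strand, so reads there cannot be told apart. *Nudt6* was at 5.98, 5.995 and 4.93 in the controls and at 4.79, 5.69 and 5.34 in the Hsp47-deleted libraries, and was likewise highest in the first run.

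*Fgf7*, or keratinocyte growth factor, is a mesenchymal ligand that signals to epithelial cells through the IIIb form of FGFR2. It lies on chromosome 2 from 126034658 to 126091185 on the plus strand. Its values were 4.59, 4.51 and 3.26 in the controls and 3.41, 3.58 and 4.56 in the Hsp47-deleted libraries. Hsp47-deleted replicate 3 matched the first-run controls, and the other 2 Hsp47-deleted libraries stood near control replicate 2, and the control range enclosed all 3 Hsp47-deleted values. The pooled log2 fold change was -0.27 (SE 0.48, 95% interval from -1.38 to 0.84, adjusted p = 0.799 in limma), and within the second run the difference had the other sign, 0.59.

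*Fgf10* encodes a close relative of FGF7 with a role in lung and limb budding, and was near the lower end of the scale. It lies on chromosome 13 from 118669791 to 118792115 on the plus strand. Its values of 1.08, 1.05 and 0.40 in the controls and 0.49, 0.95 and 0.75 in the Hsp47-deleted libraries correspond to a linear mean of 0.757, under the filter, so it was not tested. Both first-run controls were higher than all 4 libraries of the second run.

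*Fgf18*, a ligand with a known part in cartilage and bone growth, varied little. On chromosome 11 from 33117430 to 33147400 on the minus strand, it was at 5.29, 4.92 and 4.57 in the controls and at 5.23, 5.53 and 4.64 in the Hsp47-deleted libraries. Control replicate 2 was the lowest library and Hsp47-deleted replicate 3 the next lowest. The means were 4.93 ± 0.36 and 5.13 ± 0.45 (SD, n = 3 each), and the log2 fold change of 0.21 had a 95% interval from -0.61 to 1.02 (adjusted p = 0.791 in limma). All 3 Hsp47-deleted libraries were above the second-run control, by 0.56 on average. The sign turned under centring (-0.21) and quantile normalization (-0.090).

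Of the receptors, *Fgfr1* was variable among the Hsp47-deleted libraries and *Fgfr2* was close to level. FGFR1 is the FGF receptor typical of mesenchymal cells, and binds FGF2. *Fgfr1* (chromosome 8 from 25513654 to 25575718, plus strand) was at 7.60, 8.06 and 6.88 in the controls and at 7.06, 7.69 and 9.36 in the Hsp47-deleted libraries. Hsp47-deleted replicate 3 stood above all other libraries, with a linear value of 657 against 117 to 267 in the controls, while the other 2 Hsp47-deleted libraries fell inside the control range. The log2 fold change was 0.52 (SE 0.61, adjusted p = 0.69 in limma) and turned to -0.14 without that replicate. Within the second run the difference was 1.16.

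The antisense gene *Gm16159*, named after its values were seen, shares 164 exon bases with *Fgfr1*, which is 1.66% of the exon bases of *Fgfr1* and 14.2% of its own. It was at 5.07, 5.16 and 4.71 in the controls and at 6.72, 8.08 and 9.32 in the Hsp47-deleted libraries, so its groups did not overlap and its highest library was the one in which *Fgfr1* was highest. Its log2 fold change was 3.06 (SE 0.60, adjusted p = 0.139 in limma), and within the second run the difference was 3.32. In the shared stretch, reads of *Gm16159* and *Fgfr1* cannot be told apart.

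FGFR2 is the receptor of FGF7 and FGF10 in its epithelial form. *Fgfr2* (chromosome 7 from 130162451 to 133123350, minus strand, a span set by its longest annotated transcripts) was at 3.27, 2.84 and 2.28 in the controls and at 2.42, 2.66 and 3.08 in the Hsp47-deleted libraries. The range of the controls enclosed all 3 Hsp47-deleted libraries. The log2 fold change was -0.076 with a 95% interval from -0.94 to 0.79 (adjusted p = 0.935 in limma), and within the second run the difference was 0.44. It shares 314 exon bases with *Ctbp2*, on the same strand.

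The 2 Sprouty genes, both feedback inhibitors of receptor tyrosine kinase signalling, had opposite patterns over the libraries. *Spry1* (chromosome 3 from 37639947 to 37644598, plus strand) was at 3.51, 2.82 and 5.74 in the controls and at 5.77, 5.87 and 4.02 in the Hsp47-deleted libraries. Control replicate 2 stood with Hsp47-deleted replicates 1 and 2, and all libraries of the second run were above both of the first run. *Spry1* had the widest SD of the members among controls, 4.02 ± 1.52 against 5.22 ± 1.04 in the Hsp47-deleted libraries (SD, n = 3 each). The pooled log2 fold change was 1.20 (SE 0.80, adjusted p = 0.477 in limma), whereas within the second run the difference was -0.51. The overlapping opposite-strand gene *Gm42922*, which shares 710 exon bases or 24.4% of those of *Spry1*, has no row of its own among those analysed here.

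*Spry2* (chromosome 14 from 105891947 to 105896819, minus strand) was at 6.48, 6.43 and 4.84 in the controls and at 5.28, 5.85 and 6.51 in the Hsp47-deleted libraries. Here the first-run controls and Hsp47-deleted replicate 3 were high, the same 3 libraries in which *Spry1* was low. The group means, 5.92 ± 0.93 and 5.88 ± 0.61 (SD, n = 3 each), differed by -0.036 with a 95% interval from -1.26 to 1.18 (adjusted p = 0.979 in limma). Against the second-run control all 3 Hsp47-deleted libraries were higher, by 1.04 on average.

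*Ptn* and *Mdk*, the 2 members of their family, were both higher on average in the Hsp47-deleted libraries and parted at control replicate 2. Pleiotrophin is a secreted cytokine that binds the receptor phosphatase PTPRZ1, syndecans and chondroitin sulfate proteoglycans. *Ptn* (chromosome 6 from 36714929 to 36810220, minus strand) was at 5.46, 5.81 and 5.06 in the controls and at 6.53, 6.49 and 6.79 in the Hsp47-deleted libraries. The 2 groups did not overlap, and the control sequenced in the same run as the Hsp47-deleted libraries was the lowest of the 6. In the linear unit the controls ranged from 32.3 to 55.2 and the Hsp47-deleted libraries from 88.8 to 109. The means were 5.44 ± 0.38 and 6.60 ± 0.16 (SD, n = 3 each). The log2 fold change of 1.16 is 2.23-fold on the value + 1 scale (SE 0.30, 95% interval from 0.45 to 1.86, adjusted p = 0.252 in limma). An exact two-sided permutation test gave p = 0.1, the smallest that 3 libraries against 3 allow. Within the second run the difference was 1.54, and with run as a covariate it was 1.54 with an SE of 0.34 (adjusted p = 0.242 in limma). Over all alternatives run, the log2 fold change of *Ptn* lay between 0.74 and 1.54 and the adjusted p between 0.046 and 0.783. In bulk RNA, more cells with a transcript and more transcript per cell cannot be told apart.

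Midkine binds the same kinds of receptor and is known as a factor of development and tissue repair. *Mdk* (chromosome 2 from 91929805 to 91932297, minus strand) was at 3.26, 3.58 and 5.45 in the controls and at 5.87, 5.78 and 5.44 in the Hsp47-deleted libraries. The 2 controls of the first run were far below the other 4 libraries, and control replicate 2 overlapped the Hsp47-deleted libraries by a narrow margin, with a linear value of 42.6 against 42.5 in replicate 3. The means were 4.10 ± 1.18 and 5.70 ± 0.23 (SD, n = 3 each). The log2 fold change was 1.60 (SE 0.56, 95% interval from 0.31 to 2.90, adjusted p = 0.292 in limma), whereas within the second run the difference was 0.25. Leaving out control replicate 2 brought both genes under the BH threshold, *Mdk* with a log2 fold change of 2.28 (adjusted p = 0.0047 in limma) and *Ptn* with 0.97 (adjusted p = 0.046 in limma). In that comparison run and label coincide and cannot be told apart. The same fit also brought some of the pathway genes described below under the threshold. Among them were *Fgfrl1* (adjusted p = 0.0115 in limma) and *Dusp6* (adjusted p = 0.0146 in limma), while others such as *Sdc4* (adjusted p = 0.071 in limma) stayed above it. The share of all tested genes that passed in that fit is not given. Over all alternatives run, the value of *Mdk* lay between 0.25 and 2.28 and the adjusted p between 0.0047 and 0.851. The libraries of the second run, in which *Mdk* and *Spry1* were higher, also had the higher summed fibroblast, cardiomyocyte, endothelial and leukocyte markers given above. The part of those cells in these values was not tested.

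**Figure D3:**
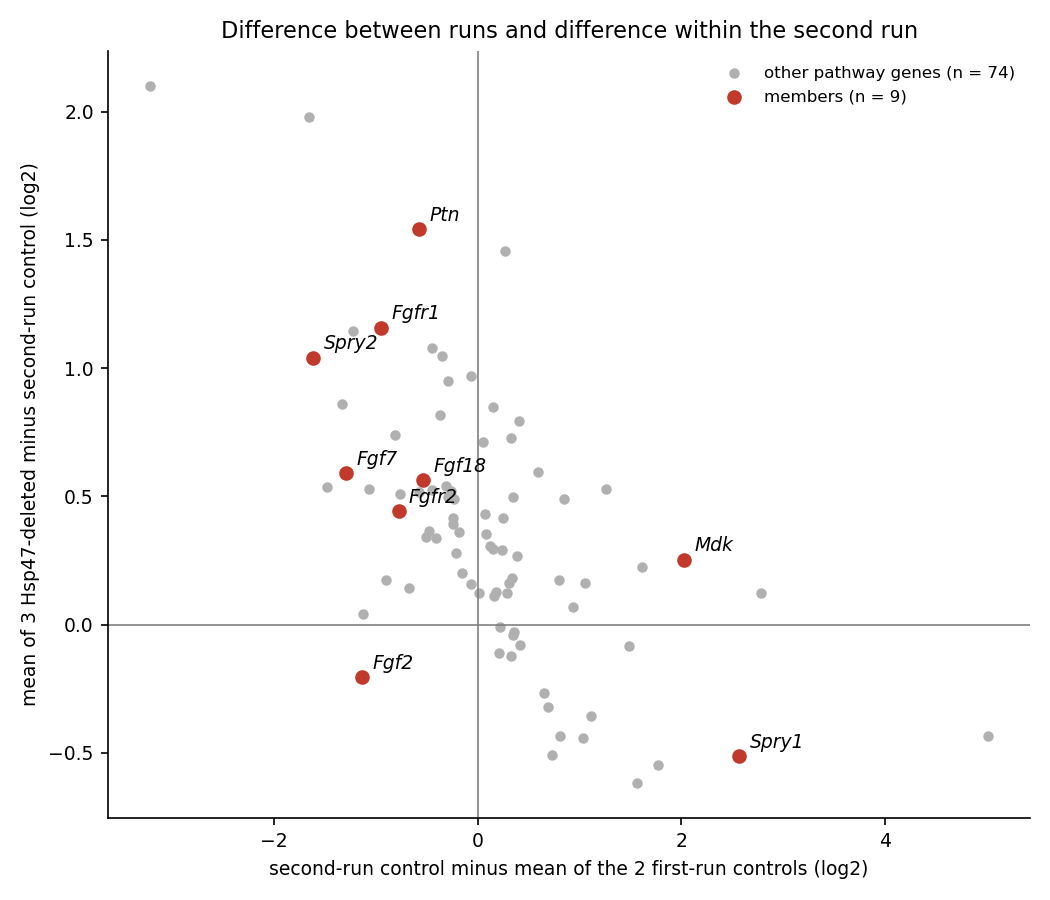
The horizontal axis gives the log2 difference of the second-run control from the mean of the 2 first-run controls, and the vertical axis that of the 3 Hsp47-deleted libraries from the second-run control, for the 9 tested members (red) and 74 other pathway genes (grey). Both axes contain the second-run control, so a downward slope is built in. *Ptn* lies highest of the members at 1.54 with a run difference of -0.58, *Mdk* (2.03) and *Spry1* (2.57) lie far to the right, and *Spry2* (-1.62) farthest to the left.

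The wider pathway was described with 8 lists of other genes, 97 in all, of which 96 had a row (*Hras* was the exception) and 74 were tested. The genes followed the shift of the whole table. Their median log2 fold change was 0.33, beside 0.35 for all tested genes, and 65 were positive and 9 negative, a split that became 28 and 46 with centred libraries. At an unadjusted limma p under 0.05, 12 were higher and 0 lower, beside 14.5% and 0.755% of all tested genes. With all 6 libraries none of the 74 passed the BH threshold, while without control replicate 2 some did, as given above. The count of 12 is 7 with the replicate number as a block, 5 with run as a covariate and 2 with centred or quantile-normalized libraries. It is 20 without control replicate 2, 14 without Hsp47-deleted replicate 3 and 8 without control replicate 4. It is 4 without control replicate 3, Hsp47-deleted replicate 1 or Hsp47-deleted replicate 2. Shares of all tested genes in those alternatives are not given. The groups did not overlap at 21 genes, all higher in the Hsp47-deleted libraries, where 18.3% of all tested genes were higher and 1.5% lower without overlap. Adjusted limma p of the 12 ranged from 0.274 to 0.327.

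Among 14 other secreted ligands only 4 were tested, since 10 were under the filter. *Fgf9*, a ligand active in the developing heart, was at 1.50, 2.09 and 1.35 in the controls and at 2.36, 2.55 and 2.37 in the Hsp47-deleted libraries, without overlap (log2 fold change 0.78, and 1.08 within the second run). Of the 3 tested intracellular FGF homologous factors, which are not secreted, *Fgf14*, a partner of voltage-gated sodium channels, differed by 0.95 and by 0.73 within the second run. *Fgfrl1*, an FGF receptor-like protein without a kinase domain, was at 2.08, 1.92 and 3.26 in the controls and at 3.75, 4.02 and 3.59 in the Hsp47-deleted libraries, with a log2 fold change of 1.37. It was 1 of 3 tested genes in its list of other receptors, co-receptors and carriers, and its second-run control stood 0.53 below the Hsp47-deleted mean. Enzymes that build, sulfate or trim heparan sulfate gave 14 tested genes. Of these, 0 had an unadjusted p under 0.05, beside 14.5% (higher) and 0.755% (lower) of all tested genes. The 2 with the smallest p were *Extl2*, a glycosyltransferase (log2 fold change 0.70, adjusted p = 0.380 in limma), and *Sulf2*, an extracellular sulfatase (0.91, adjusted p = 0.414 in limma), and both were split by run, with differences of 0.17 and -0.082 within the second run.

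From the receptor to ERK, 3 of 19 tested genes had an unadjusted p under 0.05, all higher, beside 14.5% of all tested genes. *Grb2*, the adaptor that couples receptors to RAS activation, was at 3.75, 3.32 and 3.58 in the controls and at 4.30, 4.35 and 4.23 in the Hsp47-deleted libraries. The RAF kinase gene *Araf* differed by 0.99 and the MEK gene *Map2k2* by 0.95, and within the second run these differences were 0.60 and 0.85. Of 8 tested feedback inhibitors beside *Spry1* and *Spry2*, the ERK phosphatase genes *Dusp5* and *Dusp6* met the same threshold, with log2 fold changes of 1.05 and 1.30. Within the second run that of *Dusp5* was 0.49 and that of *Dusp6* 0.22. Among 8 genes induced by ERK, *Etv4*, an ETS transcription factor, differed by 1.06 and by 0.79 within the second run. *Egr1*, an immediate early gene, was at 8.11, 8.08 and 10.9 in the controls and at 11.4, 11.7 and 9.82 in the Hsp47-deleted libraries. Its log2 fold change was 1.98, with 0.12 within the second run, and like *Spry1* it was high in control replicate 2 and lower in Hsp47-deleted replicate 3 than in the other 2 Hsp47-deleted libraries.

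Of 15 tested receptors for pleiotrophin and midkine, 2 had an unadjusted p under 0.05, both higher and both without overlap. Of all tested genes, 14.5% were higher at that threshold and 18.3% were higher without overlap. *Sdc4*, which encodes the heparan sulfate proteoglycan syndecan-4, was at 5.75, 5.75 and 5.68 in the controls and at 6.25, 6.90 and 6.80 in the Hsp47-deleted libraries. Its controls were level across both runs, and its log2 fold change of 0.92 was 0.97 within the second run. *Lrp1*, an endocytic receptor that binds midkine, was at 7.58, 7.97 and 8.12 in the controls and at 8.63, 8.80 and 8.43 in the Hsp47-deleted libraries, with differences of 0.73 pooled and 0.50 within the second run. Of the 12 genes over all lists, 10 were higher in all 3 Hsp47-deleted libraries than in the second-run control (*Dusp6* and *Egr1* were not), as were 46.7% of all tested genes. All 4 libraries of the second run stood above both of the first run at 9 of the 12, beside 35.0% of all tested genes, and the 3 without that split were *Fgf9*, *Grb2* and *Sdc4*. The 12 were picked by a pooled p from the same libraries, which favours both patterns.

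**Figure D4:**
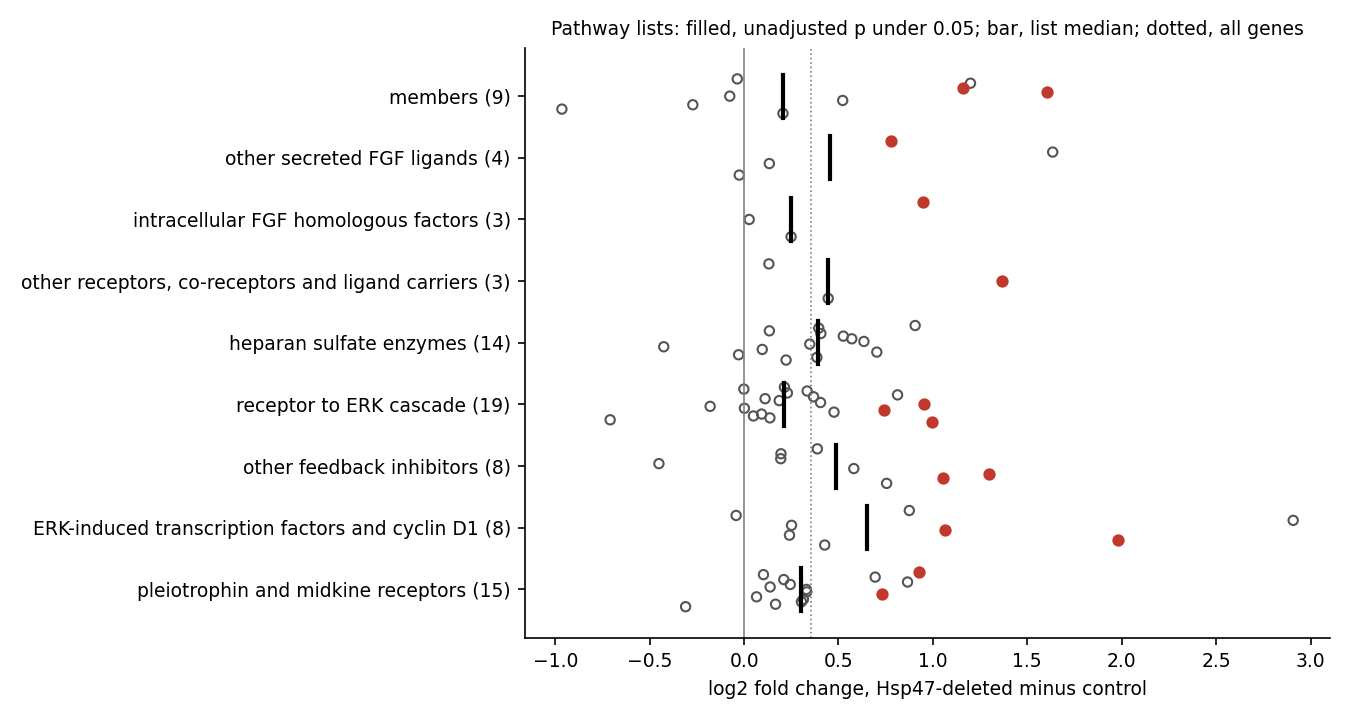
Each mark is the log2 fold change (horizontal axis) of 1 tested gene, by list, with the number of tested genes in parentheses. Filled red marks have an unadjusted limma p under 0.05, black bars are list medians and the dotted line is the median of all tested genes, 0.35. List medians range from 0.21 for the members and for the ERK cascade to 0.65 for the genes induced by ERK, and all red marks lie to the right of 0.

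The genes whose values followed *Ptn* most closely over the 6 libraries were *Sun2*, which encodes a protein of the inner nuclear membrane (Pearson r = 0.996), the predicted gene *Gm11973* (r = 0.995) and the ribosomal protein pseudogene *Rps18-ps3* (r = 0.994). *Sun2* was at 5.58, 5.86 and 4.89 in the controls and at 6.75, 6.82 and 7.17 in the Hsp47-deleted libraries, with the same lowest and highest libraries as *Ptn*. Of the 15109 tested genes, 253 had r of at least 0.9 with *Ptn*, and 74 of at least 0.95. These values describe a linear likeness over the same libraries and no more. None of the 10 members had a near-identical copy, taken as another gene with a transcript of 95% identity over 80% of the length, and 5 shared exon bases with another gene.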

How the data were processed

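RNA from sorted EGFP+ fibroblasts was amplified (Ovation RNA-Seq System v2), made into Nextera XT libraries and sequenced on a HiSeq2500, and 3 control and 3 Hsp47-deleted libraries were compared. The authors deposited log2(value + 1) per gene and library without naming the linear unit. The submitters' processing notes name kallisto and mm10, and the paper names AltAnalyze. The values hold fractions, not counts, so read depth is unknown and no model for counts was used. With the log2 undone, the libraries summed to between 690499 and 855404. Columns of the authors' group means, folds and p-values were not used.

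The members and gene lists were chosen with earlier results of these data known. Genes with a linear mean of at least 1 (15109, with 13878 left out) went into limma 3.58.1 under R 4.3.3. The fit used a mean-variance trend, no covariate and BH adjustment over all these genes. It was first tested on simulated data with independent noise for each gene and no run effect. Such data cannot show how the fit handles the run. A fold change on the log2(value + 1) scale understates the change of low genes. The text names all members, *Serpinh1*, the genes of each pathway list with an unadjusted p under 0.05 (otherwise the 2 with the smallest p) and the 3 genes most correlated with the member of smallest p. Of the 6 genes that share exon bases with a member, *Nudt6*, *Ctbp2*, *Gm42922* and *Gm16159* were described, *Gm16159* after its values were seen. *Gm43439*, which overlaps *Fgf2*, and *Gm16263*, which overlaps *Fgf10*, were not described. Marker lists covered fibroblasts, endothelial cells, leukocytes, cardiomyocytes, mural, mesothelial, Schwann and erythroid cells. Positions are from GENCODE release M21 (GRCm38), near-identical copies were sought with minimap2 2.31-r1302, and promoters are from RefSeq (GRCm38.p6).

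Alternatives were sequencing run as a covariate, the second run alone, a block for replicate number, other filters (none, or a mean of 5), other pseudocounts (0.1 and 5), centring, rescaling to equal sums, quantile normalization, limma without the trend or robust (statmod 1.5.0), and each library left out.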

Additional observations from a re-analysis of the deposited data

How the results depend on the processing

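The comparison rests on 3 libraries against 3, nearly split by run, and without read depths the counting error of low genes such as *Fgf10* is unknown. Under 17 other fits the 9 tested members gave 153 values, of which 2 passed the BH threshold (*Ptn* and *Mdk* without control replicate 2) and 16 turned sign. *Ptn*, *Mdk* and *Fgf2* kept their direction in every fit. With run as a covariate, or in the second run alone, the log2 fold change turned to 0.59 for *Fgf7*, 0.44 for *Fgfr2*, 1.04 for *Spry2* and -0.51 for *Spry1*. With the replicate number as a block it turned to 0.15 for *Fgf7*, 0.093 for *Fgfr2* and 0.52 for *Spry2*. Only 2 numbers are shared between the groups, with a correlation of deviations of 0.23 and 0.16, so the numbers were not taken to pair the libraries. Centring turned *Fgf18* to -0.21, quantile normalization turned it to -0.090 and *Fgfr1* to -0.014, and the members' median, then set by *Fgf18*, turned to the same -0.21 and -0.090. The cause of these turns was not tested.

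The count of members with an unadjusted p under 0.05 (2) was 1 with run as a covariate and 1 without a filter. That of pathway genes (12) was 5 with run as a covariate, 7 with the replicate block, 2 with centring and 2 with quantile normalization, and members without overlap (1) became 2 with quantile normalization. Leaving out each library in turn gave from 1 to 4 such members, from 4 to 20 such pathway genes, from 1 to 4 members without overlap and from 0 to 2 members past the BH threshold. It gave a members' median from -0.14 to 0.39, and log2 fold changes from -0.14 to 1.01 for *Fgfr1*, from -0.34 to 0.16 for *Fgfr2* and from -0.57 to 0.26 for *Spry2*. Without turning, it ran from 0.60 to 2.06 for *Spry1*, from -1.34 to -0.58 for *Fgf2*, from -0.70 to -0.037 for *Fgf7* and from 0.0075 to 0.45 for *Fgf18*. The highest counts came without control replicate 2, and that of members without overlap also without Hsp47-deleted replicate 3. Shares of all tested genes in these smaller fits are not given, and without control replicate 2 run and label coincide.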
